A study of Mus musculus with 4 samples.

Results

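Plasminogen activators, matrix metalloproteinases and their inhibitors were followed on 4 Affymetrix 430A arrays of testes from sterile male mice. The list holds 9 genes, of which 8 could be matched to 19 single-gene probe sets, out of 12393 genes measured. Serpine2, an inhibitor of both plasminogen activators and of thrombin, was not matched and was not analysed here. The genes were chosen by their place in the protease system together with earlier results of these arrays, namely the higher Plat signal in tubules of both genotypes. All values that compare tubules with whole testis are therefore descriptions, and no test is given for them.

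Tissue plasminogen activator (Plat) and urokinase (Plau) are serine proteases that cut plasminogen into plasmin, and Plaur is the receptor that holds urokinase at the cell surface. Plasmin degrades fibrin and matrix proteins and helps to activate metalloproteinases such as Mmp2 (gelatinase A). The membrane-bound Mmp14 activates the Mmp2 proenzyme with Timp2 as an adaptor, while Timp1, Timp2 and Timp3 block metalloproteinases, Timp3 while bound to the matrix. In the testis, Sertoli cells are a known source of plasminogen activators, whose output responds to follicle-stimulating hormone. The system is linked to the movement of germ cells within the tubule.

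The animals were adult males of 2 genotypes. W/Wv males, a WB by B6 cross bought from a supplier, carry mutations of the receptor gene Kit that leave few germ cells. XX/Sry males are chromosomally female and carry Sry as a transgene, and the sources used here do not name their strain. Whole testis and seminiferous tubules of each genotype gave 4 groups with 1 array each, so there is no spread between replicates. The labels do not say whether a sample pooled animals or whether both preparations came from the same animals. Tubules were freed with collagenase (5 mg/ml, 37 °C, 40 min) and washed on a 70 µm strainer to take away interstitial cells. The series addresses whether the somatic cells of the XX/Sry testis can support spermatogenesis.

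Both genotypes' labels were matched by Eif2s3y, a Y chromosome gene above background only in W/Wv, and by Xist, at least 13.1-fold higher in XX/Sry. The median signal was between 157 and 183 on the arrays, and the background bound, the highest of 27 bacterial control probe sets, was between 46.1 and 76.3. The 18 hybridisation spike controls stood 0.46 (log2) above their mean over the arrays in W/Wv tubules and between 0.09 and 0.18 below it on the other arrays. The Leydig cell list had 5 of 5 genes at least 2-fold lower in tubules of both genotypes and the macrophage list 6 of 8, with macrophage sums of 9913 and 13716 in whole testis and 4248 and 3386 in tubules. The sum of 7 endothelial markers was lowest in W/Wv testis (807) and between 1030 and 1110 elsewhere. The summed signal of 12 Sertoli cell markers was 55794 and 66241 in W/Wv and XX/Sry whole testis, then 87353 and 75897 for their tubules. Clu alone, the brightest of the markers, had 29276 and 35925 in whole testis and 50416 and 38329 in tubules, in the same order. Of these markers 11 were above the bound in both whole testis samples and 12 in both tubule samples, Amh being the exception. The germ cell list was above the bound for 7 of 7 genes in W/Wv whole testis and for 4 of 7 on each other array. Germ cell markers Ddx4, Tnp1 and Stra8 were below the bound in both XX/Sry samples, and Dazl, Sycp3, Prm1 and Zbtb16 above it in both. In W/Wv tubules Tnp1, Stra8 and Prm1 were the ones below the bound.

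Plat showed the widest range of the members, and its signal separated tubules from whole testis. Its signal was 528 on the W/Wv testis array, 857.5 on the XX/Sry testis array, 2049 on the W/Wv tubule array and 2818 on the XX/Sry tubule array. Both tubule arrays thus lay above both whole testis arrays, and in each preparation the XX/Sry array was the brighter one. The tubule signal was 3.88-fold that of whole testis in W/Wv and 3.29-fold in XX/Sry, larger ratios than those of 97.9% and 96.5% of all genes. Among the members Plat was the one gene at least 2-fold higher in tubules of both genotypes, against 1.32% of all genes, and 0 members were lower, against 5.74%. The call rule, at least 2-fold the same way in both pairs of arrays, is the one the series' design text gives for genotype, used here for preparation too. Under median centring, quantile normalisation, an added offset, a floor at background and spike scaling, Plat stayed past 2-fold in both genotypes.

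Urokinase and its receptor did not follow Plat. Plau had signals of 65.5 on the W/Wv testis array, 82.1 on the XX/Sry testis array, 68.8 on the W/Wv tubule array and 83.4 on the XX/Sry tubule array, close to the background bound on all arrays and below it in W/Wv whole testis. Its other probe set lay below the bound on all 4 arrays, so Plau was at the edge of detection here. Plaur had signals of 184 and 166 for testis and tubules of W/Wv males, then 102 and 88.9 for XX/Sry. The Plaur groups separate by genotype, with both W/Wv arrays above both XX/Sry arrays, and not by preparation, where the W/Wv log2 ratio of -0.15 turned to 0.075 and 0.063 after median centring and quantile normalisation. The log2 ratio of tubules to whole testis was larger for Plat than for Plaur by 2.10 in W/Wv and by 1.91 in XX/Sry, a pair chosen after its values were seen. An array's scaling factor does not enter such a difference.

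**Figure D1:**
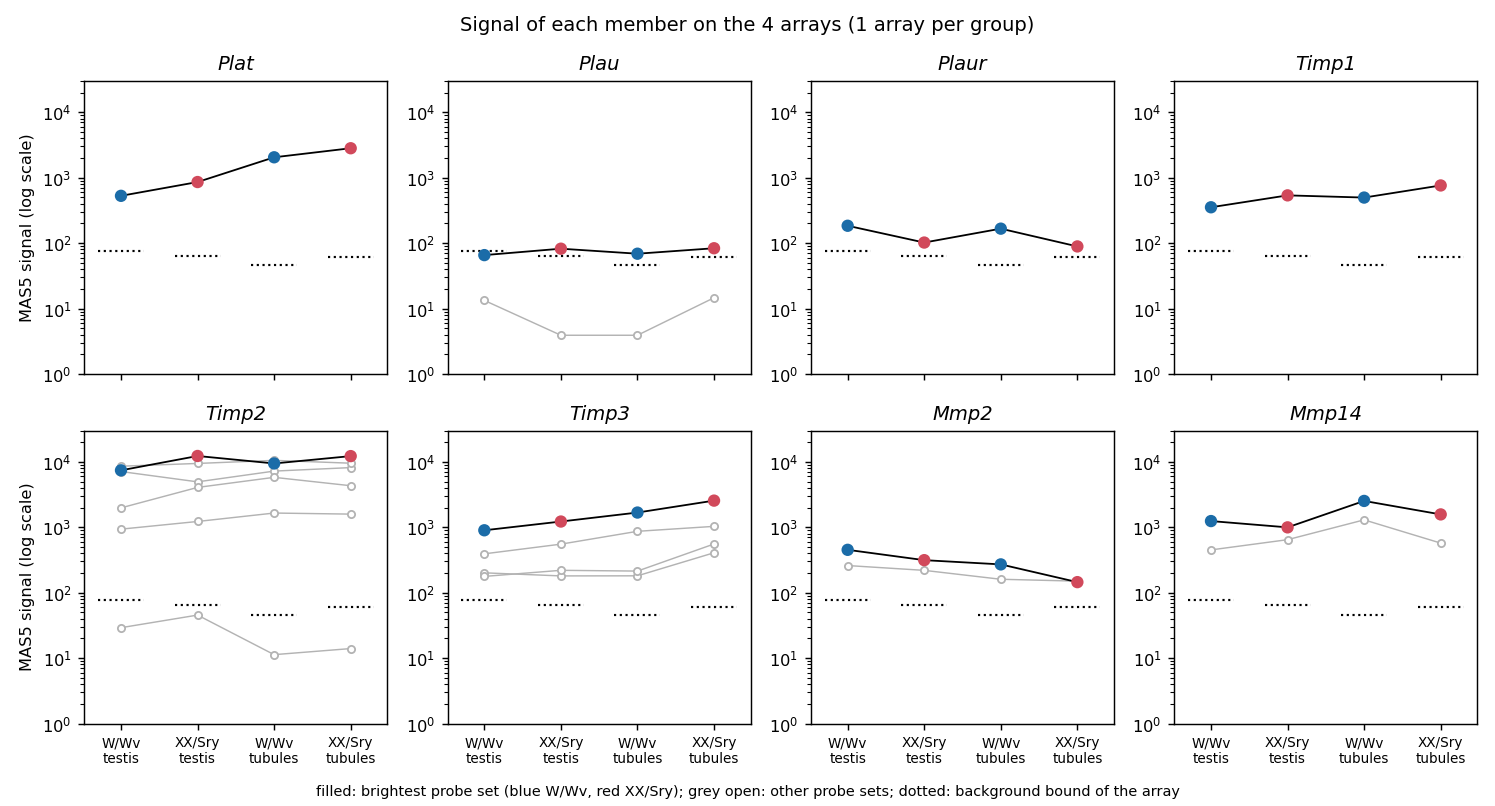
MAS5 signal on a log scale (vertical axis) of the 8 matched genes on the 4 arrays (horizontal axis). Filled points show the brightest probe set of a gene, in blue for W/Wv and red for XX/Sry, open grey points show its other probe sets, lines join the points of 1 probe set and dotted bars mark the background bound of each array. Plat runs from 528 to 2818, Plau stays near the bound, and Timp2 has 1 of its 6 probe sets below the bound throughout.

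Of the metalloproteinase inhibitors, Timp3 came closest to the pattern of Plat. Timp3 had signals of 900.1 on the W/Wv testis array, 1224.5 on the XX/Sry testis array, 1680 on the W/Wv tubule array and 2556 on the XX/Sry tubule array on its brightest probe set. The order of the 4 arrays was that of Plat, with tubules 1.87-fold and 2.09-fold above whole testis in W/Wv and XX/Sry. The W/Wv ratio stops short of 2-fold as deposited; after median centring both genotypes passed, and 2 members instead of 1 were then higher. The 4 Timp3 probe sets, all above background, gave log2 ratios between -0.15 and 1.14 in W/Wv and between 0.90 and 1.34 in XX/Sry. They therefore placed the inhibitor higher in tubules of XX/Sry throughout, while in W/Wv 3 of 4 had a ratio above 0.

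Timp1, a secreted inhibitor whose gene lies on the X chromosome, was lowest in W/Wv testis and highest in XX/Sry tubules. Its signal was 353 on the W/Wv testis array, 536 on the XX/Sry testis array, 496 on the W/Wv tubule array and 760 on the XX/Sry tubule array. Tubules were 1.41-fold and 1.42-fold above whole testis in W/Wv and XX/Sry, under the 2-fold rule, and with scaling on the spike controls the W/Wv log2 ratio turned from 0.49 to -0.054. W/Wv tubules and XX/Sry whole testis, neighbours in the order, differed 1.08-fold, and single arrays give no spread against which to set such steps.

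Timp2, the inhibitor that also bridges Mmp14 and Mmp2, had a range of 1.66-fold over the arrays on its brightest probe set. The brightest of its 6 probe sets gave 7423 on the W/Wv testis array, 12301 on the XX/Sry testis array, 9452 on the W/Wv tubule array and 12246 on the XX/Sry tubule array. Tubules and whole testis of XX/Sry could not be ordered (log2 ratio -0.0064, and 0.11 and 0.14 after median centring and quantile normalisation), and W/Wv tubules were 1.27-fold above W/Wv whole testis (log2 ratio 0.35, turning to -0.20 with spike scaling). Over its 5 probe sets above background the log2 ratio lay between 0.022 and 1.55 in W/Wv and between -0.0064 and 0.72 in XX/Sry. The sixth probe set of Timp2 counted as at least 2-fold lower in tubules by the deposited signals, but it lay below the bound on every array. Of the 19 probe sets of the members, 1 was thus higher and 1 lower in tubules of both genotypes, against 1.81% and 5.86% of all 22626 probe sets.

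The metalloproteinases Mmp14 and Mmp2 ran in opposite directions between preparations on their brightest probe sets. Mmp14 had signals of 1245 on the W/Wv testis array, 997 on the XX/Sry testis array, 2529 on the W/Wv tubule array and 1574 on the XX/Sry tubule array on its brightest probe set. Both tubule arrays lay above both whole testis arrays, by 2.03-fold within W/Wv and 1.58-fold within XX/Sry. The other Mmp14 probe set read 451 and 1299 for testis and tubules of W/Wv males and 647 and 573 in XX/Sry, so the probe sets differ in XX/Sry, where their log2 ratios were 0.66 and -0.17.

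Mmp2 had signals of 452 on the W/Wv testis array, 314.5 on the XX/Sry testis array, 271 on the W/Wv tubule array and 145 on the XX/Sry tubule array. Here both whole testis arrays lay above both tubule arrays, by 1.67-fold in W/Wv and 2.17-fold in XX/Sry, and the other probe set gave 1.62-fold and 1.46-fold in the same direction. Under spike scaling Mmp2 passed the 2-fold rule as lower in tubules of both genotypes. The log2 ratio of tubules to whole testis was larger for Mmp14 than for Mmp2 by 1.76 in W/Wv and 1.77 in XX/Sry, a difference free of array scaling. Over the 4 combinations of probe sets it lay between 1.72 and 2.26 in W/Wv and between 0.37 and 1.77 in XX/Sry, above 0 in each. This pair too was chosen after its values were seen.

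**Figure D2:**
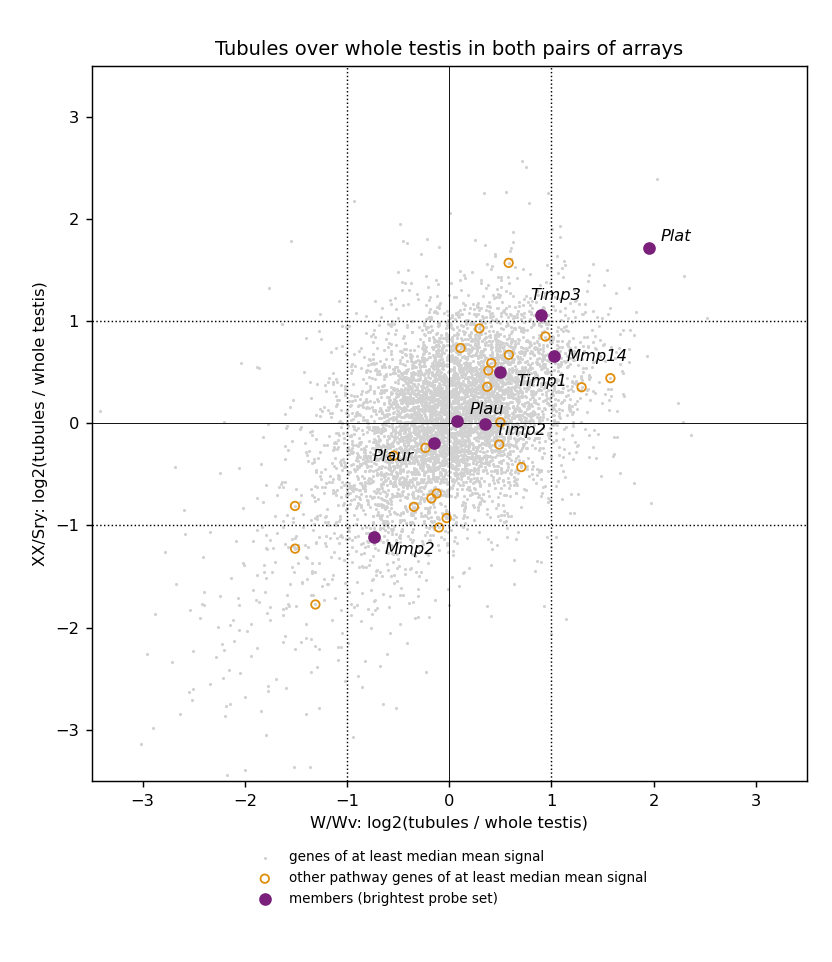
Log2 ratio of tubules to whole testis in W/Wv (horizontal axis) and XX/Sry (vertical axis), from single arrays. Purple points are the 8 matched members on their brightest probe set, orange rings 23 other genes of the protease systems and grey dots 6191 genes, the last 2 sets limited to at least median mean signal. Dotted lines mark 2-fold, and 7 grey dots fall outside the axes. Plat lies past 2-fold in both genotypes, Timp3 and Mmp14 past it in 1 of them, and Mmp2 on the opposite side.

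Markers of other cells moved along the same comparison. The summed signal of 7 peritubular myoid markers was 11031 and 12895 in W/Wv and XX/Sry whole testis, then 16109 and 17107 for their tubules. Acta2, the brightest, went from 5127 to 9823 in W/Wv and from 7449 to 10566 in XX/Sry. Mylk was lower in W/Wv tubules (4612 to 3611) and Des in XX/Sry tubules (166 to 150). By the 2-fold rule 0 of the 7 were higher and 0 lower. The summed signal of 6 fibroblast markers, all above the bound on every array, was 17483 and 23125 in whole testis against 8996 and 5115 in tubules. Of these markers, 2 (Dcn and Lum) were at least 2-fold lower in tubules of both genotypes. Within W/Wv the bright Dcn went from 9636 to 3124, while Col1a1 and Pdgfra were higher in tubules (log2 ratios 0.40 and 0.64). Within XX/Sry each of the 6 was lower in tubules. For 12 immediate early genes, which many cells switch on quickly after stimulation, the sums were 4754 and 4185 in whole testis and 15321 and 8942 in tubules, and 3 of the 12 were at least 2-fold higher in both genotypes. Their part in the tubule values of Plat, Timp3, Mmp14 and Mmp2 was not tested. In such mixed tissue fewer cells of a type and less RNA per cell cannot be told apart.

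Promoter sequences are shown for 3 members that behaved differently between preparations. They were Plaur, close to level, and Timp3 and Mmp14, whose brightest probe sets were higher in tubules. The bases are the 250 upstream of the start given for each gene in a RefSeq table (build GRCm38.p6), which the tables used here gave for 6 of the 9 listed genes (Plaur, Serpine2, Timp1, Timp2, Timp3 and Mmp14). Capitals mark letters of the AP-1 motif TGANTCA, bound by Fos and Jun proteins, and of the GC box GGGCGG, searched on both strands with overlapping matches counted.

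Plaur (chr7:24462233-24462482, + strand): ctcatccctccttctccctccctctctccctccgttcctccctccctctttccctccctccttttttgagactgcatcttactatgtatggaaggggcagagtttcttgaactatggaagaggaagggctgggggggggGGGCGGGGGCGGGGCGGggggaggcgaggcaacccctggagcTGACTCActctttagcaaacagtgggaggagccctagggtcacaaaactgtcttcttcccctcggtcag

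Timp3 (chr10:86300162-86300411, + strand): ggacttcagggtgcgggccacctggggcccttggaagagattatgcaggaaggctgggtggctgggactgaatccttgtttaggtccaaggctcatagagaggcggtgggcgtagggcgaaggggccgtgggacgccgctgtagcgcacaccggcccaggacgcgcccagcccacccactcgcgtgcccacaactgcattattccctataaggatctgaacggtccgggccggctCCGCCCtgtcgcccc

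Mmp14 (chr14:54431348-54431597, + strand): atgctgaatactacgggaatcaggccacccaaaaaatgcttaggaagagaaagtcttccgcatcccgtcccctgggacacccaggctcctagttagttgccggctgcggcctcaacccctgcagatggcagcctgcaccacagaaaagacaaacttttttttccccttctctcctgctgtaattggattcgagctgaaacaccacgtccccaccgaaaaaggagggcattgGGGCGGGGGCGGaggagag

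Plaur alone among the 6 windows held the AP-1 letters, with TGACTCA from 69 to 63 bases before the start, against 6.75% of 32851 promoter windows of that length. It also held 3 GC box matches, 2 of which share a base. Timp3 held 1 GC box match on the opposite strand and Mmp14 held 2, and 32.7% of all windows held at least 1. The cyclic AMP response element TGACGTCA (1.55% of windows) and the TATA box TATAAA (12.4%) were in none of the 6. These matches are letters only, and binding was not measured.

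**Figure D3:**
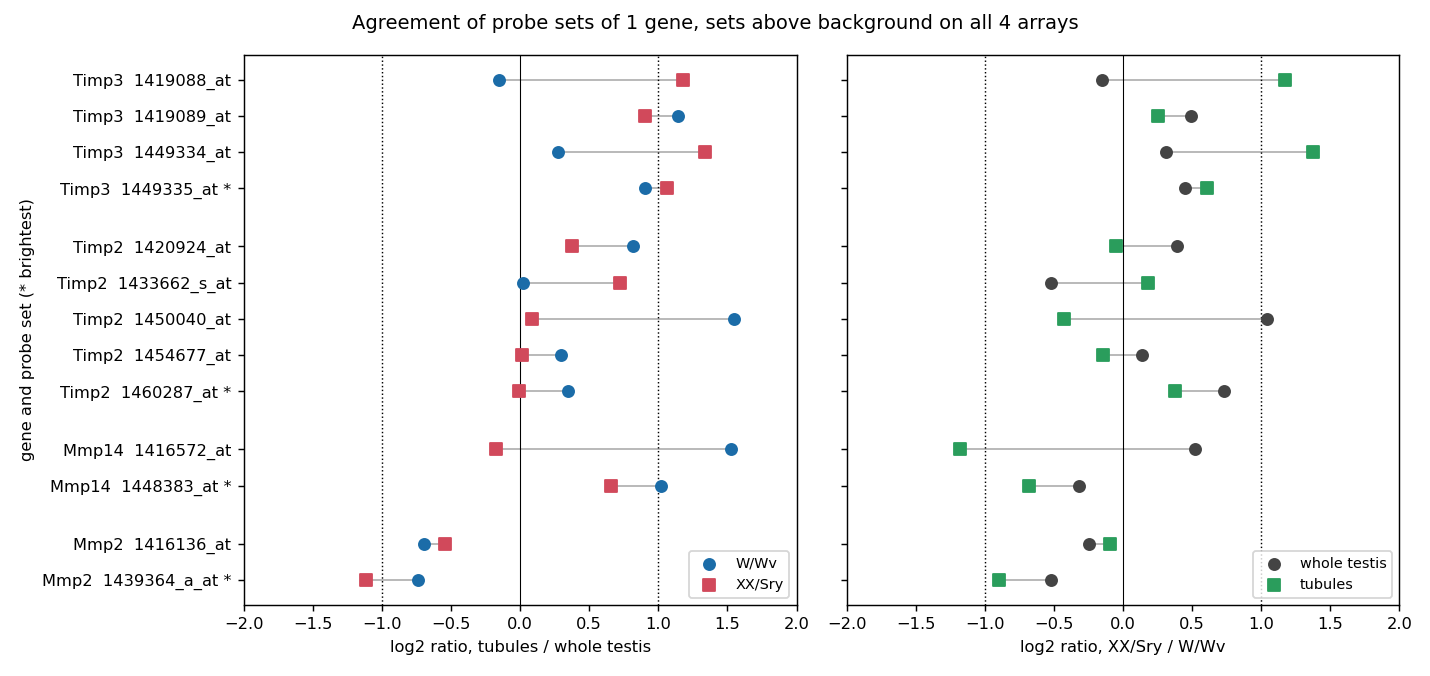
Log2 ratios of the 13 probe sets of Timp3, Timp2, Mmp14 and Mmp2 that were above background on all 4 arrays, for tubules over whole testis (left, blue circles W/Wv, red squares XX/Sry) and for XX/Sry over W/Wv (right, dark circles whole testis, green squares tubules). Each row is 1 probe set, the asterisk marks the brightest of a gene, and dotted lines mark 2-fold. Mmp2 lies below 0 in all 8 of its points, while Timp3, Timp2 and Mmp14 have points on both sides.

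The genotype comparison set XX/Sry against W/Wv within each preparation. By the 2-fold rule in both preparations 0 of 8 members were higher and 0 lower, against 1.98% and 3.22% of all genes. The same held for 0 of their 19 probe sets in either direction, with 2.2% of all probe sets higher and 3.8% lower. The members' median log2 ratio was 0.38 in whole testis and 0.33 in tubules. Medians were -0.10 and -0.0026 over all genes and -0.078 and -0.00093 over 61 other protease genes. In each preparation 5 of 8 members were above 0, beside 43.5% of all genes in whole testis and 49.8% in tubules. An additive fit of genotype and preparation over the 4 arrays (limma, 1 residual degree of freedom, Benjamini-Hochberg adjustment over 22626 probe sets) called 0 of 19 probe sets of the members, while 0.11% of probe sets were called higher and 0.0398% lower. At an unadjusted p under 0.05 there was 1, that of Plat, beside 1977 of all probe sets.

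Plat was 1.62-fold higher in XX/Sry in whole testis and 1.38-fold higher in tubules. Its fitted log2 difference was 0.58 (SE 0.25, 95% interval 0.039 to 1.12, limma adjusted p = 0.534). This interval stayed above 0 after median centring, quantile normalisation and the offset. It included 0 without the trend on mean signal (-0.49 to 1.65), with the floor (-0.012 to 1.17) and among brighter probe sets (-0.023 to 1.18). Plaur was 1.81-fold and 1.87-fold lower in XX/Sry, with a fitted difference of -0.88 (SE 0.50, interval -1.99 to 0.23, limma adjusted p = 0.694). Plau was at least 1.08-fold and 1.21-fold higher at the edge of detection, and its interval of -1.14 to 1.74 holds changes of more than 2-fold either way. For the receptor and its protease the arrays therefore set wide limits.

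The inhibitors were on the higher side in XX/Sry on their brightest probe sets. Timp1 was 1.52-fold and 1.53-fold higher in whole testis and tubules, with a fitted difference of 0.61 (SE 0.28, interval -0.014 to 1.23, limma adjusted p = 0.585). Timp3 was 1.36-fold and 1.52-fold higher, with 0.52 (SE 0.24, interval -0.0076 to 1.06, limma adjusted p = 0.579). Timp2 was 1.66-fold and 1.30-fold higher, with 0.55 (SE 0.29, limma adjusted p = 0.662), but its 5 probe sets above background spread from -0.52 to 1.04 in whole testis and from -0.43 to 0.37 in tubules, where their mean was -0.014. None of these differences passed the threshold, and the intervals reach at least 2-fold on the higher side.

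The metalloproteinases were on the lower side. Mmp2 was 1.44-fold and 1.87-fold below W/Wv in whole testis and tubules, with a fitted difference of -0.71 (SE 0.36, interval -1.50 to 0.078, limma adjusted p = 0.632), and its other probe set was 1.18-fold and 1.07-fold lower. Mmp14 was 1.25-fold and 1.61-fold lower, with -0.50 (SE 0.25, limma adjusted p = 0.620). The other Mmp14 probe set favoured XX/Sry 1.43-fold in whole testis and W/Wv 2.27-fold in tubules, so the whole testis direction of this gene rests on the choice of probe set, while both sets were lower in tubules. With spike scaling the 8 tubule log2 ratios moved by more than 1.5-fold, to 1.09 for Plat, 1.24 for Timp1, 1.23 for Timp3 and -0.058 for Mmp14. The Leydig cell list had summed signals of 36461 and 9134 for testis and tubules of W/Wv males, then 57785 and 21820 for XX/Sry. The germ cell sum was 4630 in W/Wv against 912.5 in XX/Sry whole testis and 751 against 807.5 in tubules. Fibroblast markers had a median log2 ratio of XX/Sry to W/Wv of 0.72 in whole testis and -1.12 in tubules. The part of these cells in the genotype ratios was not tested.

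**Figure D4:**
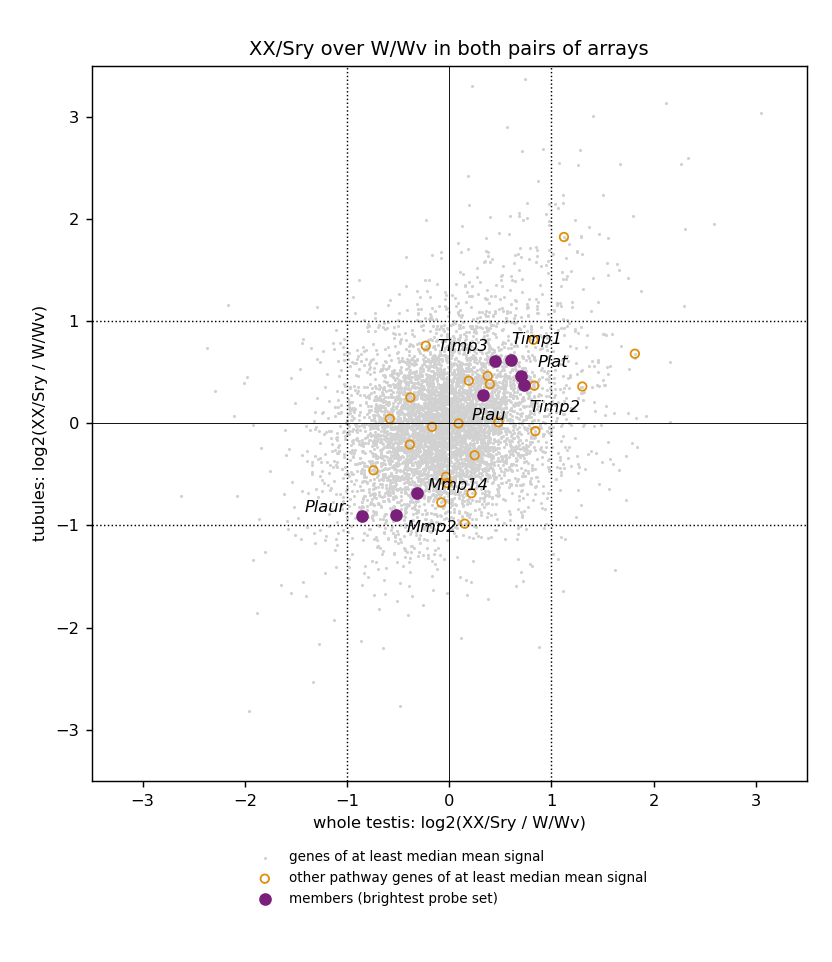
Log2 ratio of XX/Sry to W/Wv in whole testis (horizontal axis) and tubules (vertical axis), from single arrays, with the same symbols and signal limit as the plot of preparation ratios. All 8 members lie inside the dotted 2-fold lines in both pairs; Plat, Plau and the Timp genes lie above 0 and Plaur, Mmp2 and Mmp14 below it in both. Of the grey dots, 5 fall outside the axes.

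The other genes of these systems were described from a list of 71 symbols, of which 61 were measured. Between preparations 1 was higher and 4 were lower in tubules of both genotypes, against 1.32% and 5.74% of all genes. A stricter rule also asks for the array median or more from the brighter signal in each pair. It left 0 higher and 3 lower, against 0.444% and 1.9% of all genes. The 3 were Serping1, S100a10 and Adam12. Serping1, the C1 inhibitor, had signals of 4375 and 1537 for testis and tubules of W/Wv males, then 2615 and 1118 for XX/Sry, 2.85-fold and 2.34-fold lower in tubules. S100a10, which with Anxa2 docks plasminogen and Plat at the cell surface, read 1883 and 760 for W/Wv testis and tubules, then 3350 and 980 for XX/Sry, 2.48-fold and 3.42-fold lower. Its partner Anxa2 was 1.30-fold and 1.43-fold higher in tubules on its brightest probe set, but 1.28-fold and 1.18-fold lower on another set above the bound on all 4 arrays, so its direction rests on the choice of probe set. The other S100a10 set was lower in tubules too, by 1.75-fold and 3.13-fold. Adam12, a membrane metalloprotease, was 2.60-fold and at least 4.18-fold lower on its brightest probe set. Its other set was 1.28-fold and 2.87-fold lower, and with the mean of all probe sets of a gene Adam12 no longer passed the 2-fold rule.

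Between genotypes 1 of the 61 genes was higher in XX/Sry and 3 were lower in both preparations, against 1.98% and 3.22% of all genes. Under the stricter rule there were 1 and 0, against 0.67% and 0.339% of all genes. The higher one was Pcolce, which enhances the trimming of procollagen by other proteases, with 4995 and 10870 in W/Wv and XX/Sry whole testis, then 1754 and 6205 for their tubules, 2.18-fold and 3.54-fold higher. The lower ones, the collagenases Mmp1a and Mmp8 and the stromelysin Mmp10, were near background, and 2-fold in both preparations is not established for any of them against the bound. These 3 are named after their values were seen.

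Several genes whose products act directly on the members were dim. Plg, the substrate of the activators and chiefly a liver product, and Serpinb2, an inhibitor of Plau, were below the bound on all 4 arrays. Serpinf2, the plasmin inhibitor, was above the bound only in W/Wv tubules (78.6). Serpina5, which inhibits Plau and Plat among others, was bright at 11772 and 11151 in W/Wv and XX/Sry whole testis, and at 16517 and 9657 for their tubules. Lrp1, the receptor that clears activator and inhibitor complexes, was 1.09-fold and 1.61-fold lower in tubules of W/Wv and XX/Sry. Mmp15 was not matched and was not analysed here.

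Among regulators of the metalloproteinases, Reck, a membrane-anchored inhibitor, had signals of 669 and 1091 for testis and tubules of W/Wv males, then 743 and 552 for XX/Sry. Its tubule ratio was thus 1.63-fold up in W/Wv and 1.35-fold down in XX/Sry, and the difference was not tested. Bsg, which induces metalloproteinases, was 1.07-fold and 2.03-fold lower in tubules. Mmp9, the gelatinase B, had signals of 120 and 121 for testis and tubules of W/Wv males, then 142 and 69.6 for XX/Sry, while Timp4 lay near the bound in whole testis of both genotypes (74.4 in W/Wv and 71.6 in XX/Sry), below it in W/Wv tubules and at 139 in XX/Sry tubules. The other Mmp9 set and the other Timp4 set were below the bound on all arrays.

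Genes whose values over the 4 arrays ran closest to those of a member were listed by the root mean square distance of centred log2 signals, among genes of at least median mean signal and for members ranging at least 2-fold. For Plat the nearest were Ncstn (distance 0.159), Diaph2 (0.274) and Hdac6 (0.278), farther than those listed for the other members. Ncstn, a subunit of the gamma-secretase protease complex, had signals of 325, 617, 1591 and 1673 in W/Wv and XX/Sry whole testis and W/Wv and XX/Sry tubules. For Timp3 the nearest were Itpkb (0.0409), Sox4 (0.0833) and Nr0b1 (0.0908), for Timp1 Gab3 (0.0243), Rasl10a (0.0455) and Rdh13 (0.0510), and for Plaur Trim59 (0.0350), Zfp771 (0.0371) and Akap2 (0.0567). For Mmp14 they were Rexo1 (0.0362), Elovl2 (0.0535) and D10Wsu102e (0.0560), and for Mmp2 Kdelr2 (0.0620), Dnajc9 (0.0825) and Herc1 (0.0916). With 4 arrays and about 6196 genes compared, close matches are common, and the lists describe likeness of these values only.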

How the data were processed

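Total RNA of 4 mouse samples was labelled with biotin and hybridised for 16 hours to Affymetrix 430A arrays, 1 array per group. The authors deposited 1 linear intensity per probe set, made with MAS5 per the submitters' processing notes, and these signals were used unchanged. The sources used here give no detection calls. After 64 control probe sets were set aside, 22626 were analysed, and the platform's annotation gave a single gene to 20380 of them (12393 genes). A gene was represented by its probe set of highest mean log2 signal. A fold is given as a lower bound where the dimmer signal lay under the bound of its array. Calls needed a ratio of 2 or more, in the same direction, for both array pairs. The share of higher calls among called genes was 38.0% between genotypes and 18.7% between preparations; it became 48.8% and 33.3% after quantile normalisation, 40.6% and 31.8% after median centring, and 69.2% and 7.41% with spike scaling. Centring shifted the log2 ratios by 0.089 and -0.020 for XX/Sry over W/Wv in whole testis and tubules, and by 0.22 and 0.11 for tubules over whole testis in W/Wv and XX/Sry; spike scaling, added after the data were seen, shifted them by 0.092, 0.63, -0.55 and -0.013. The additive fit used limma 3.58.1 in R 4.3.3 (eBayes with a trend on mean signal, two-sided) and was tested on simulated data; it counts interaction as error and treats the 4 arrays as independent. All member genes, the protease list and the marker lists were chosen with earlier results of these data known. Every member is named, with other protease genes that passed the stricter rule. Those of a fixed list that act directly on a member are named too, as are the 3 genes nearest in pattern to each member ranging 2-fold. Mmp1a, Mmp8 and Mmp10 were named after their values were seen. Sequences are RefSeq promoters. Precision is limited by the number of arrays.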

Additional observations from a re-analysis of the deposited data

Results flagged for a closer look

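Several probe sets of the members gave ratios on opposite sides of 0 in the groups compared. With 1 array per group the difference between groups was not tested. For XX/Sry over W/Wv, with whole testis first and tubules second, a Mmp14 probe set had log2 ratios of 0.52 and -1.18, and a Timp3 probe set -0.16 and 1.17. Among Timp2 probe sets the ratios were 1.04 and -0.43, 0.39 and -0.054, -0.52 and 0.18, and 0.14 and -0.14. For tubules over whole testis, with W/Wv first and XX/Sry second, the same Mmp14 probe set had 1.53 and -0.17, the same Timp3 probe set -0.15 and 1.18, and the brightest Timp2 probe set 0.35 and -0.0064. The brightest probe sets of Mmp14 and Timp3 had the same sign in both groups of each comparison.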

How the results depend on the processing

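With 1 array per group no array could be left out of a 2-fold call, and leaving one out of the additive fit leaves no residual degree of freedom. No paired analysis was possible because each group has 1 array and the labels carry no replicate numbers. Over 7 alternatives for the 8 members in 4 array pairs, 212 of 224 log2 ratios moved by less than 1.5-fold and 12 by more. The sign changed for 14 of them, with deposited log2 ratios between -0.32 and 0.49. Of the ratios past 2-fold, 0 changed sign. The additive fit called 0 probe sets of the members under each of its 6 alternatives, with the lowest adjusted p between 0.325 and 0.775. The alternative limited to brighter probe sets tested only 15 of the members' 19. Members at least 2-fold higher in tubules became 2 (Plat and Timp3) after median centring, and lower ones became 1 (Mmp2) with spike scaling, an alternative chosen after seeing the data. Of the other protease genes, those higher in XX/Sry became 2 after quantile normalisation and 4 with spike scaling. Those lower in XX/Sry became 1 under both, and 0 with the offset, with the floor at background and with the stricter signal rule. Those higher in tubules became 0 under these last 3. Averaging a gene's probe sets left 4 lower in tubules, with Pcolce in place of Adam12. The cause was not tested. Over all genes, calls higher and lower between genotypes (245 and 399) became 63 and 27 with the offset, 95 and 60 with the floor, 83 and 42 with the stricter rule and 486 and 216 with spike scaling. Between preparations (163 and 711) they became 35 and 200, 56 and 297, 55 and 236 and 86 and 1075, and 260 and 559 after centring and 252 and 505 after quantile normalisation. Calls of the additive fit (25 and 9) became 57 and 19 after quantile normalisation, 12 and 5 with the offset, 249 and 144 with the floor, 126 and 48 among brighter probe sets, 17 and 8 after centring and 0 and 0 without the trend (limma, 1489 at an unadjusted p under 0.05). Genes called near the background bound have no dependable ratio.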
